A study of Mus musculus with 10 samples.

Results

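A set of 7 sodium channel, pacemaker channel and gap junction genes was followed in ventricles of cardiomyopathic mice with and without the calcium channel regulator RAD. The set is a part of each of these families and does not stand for the heart's sodium current as a whole. The members were taken as a named list and not by a cutoff on any value, although earlier results of these data were known. The list held the sodium channel genes Scn4a, Scn7a and Scn4b, the pacemaker channel genes Hcn2 and Hcn4, and the connexin genes Gja1 and Gja5. They are 7 of the 57185 genes with counts in the table and of the 13454 genes that were tested, and all 7 had more than 10 counts in each of the 10 mice. The 5 male mice labelled MLPKO lacked muscle LIM protein, the product of Csrp3, carried floxed RAD alleles and had no Cre. The 5 male mice labelled MLPKO-cRADKO also lacked muscle LIM protein and carried floxed RAD alleles, and in addition carried MYH6-MerCreMer, a Cre recombinase under a cardiomyocyte promoter that acts only after tamoxifen. All mice of both groups received tamoxifen at 100 mg per kg at 10 weeks of age and were sampled 1 month later, and the labels give their age as 16 weeks. The tissue was the apical region of the ventricles, and atria and sinoatrial node were by design not sampled. There was no group with intact muscle LIM protein and no group with Cre but without floxed alleles, so Cre activity and loss of RAD cannot be told apart.

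Voltage-gated sodium channels carry the upstroke of the action potential. They are built from a large pore-forming alpha subunit and small beta subunits that cross the membrane once. HCN channels open when the membrane hyperpolarizes, bind cyclic AMP and carry the pacemaker current of the sinoatrial node. Connexins form the gap junctions through which current passes from cell to cell, and in working myocardium these lie at the intercalated disc beside desmosomes and adherens junctions. RAD, encoded by Rrad, is a small GTP-binding protein that restrains the L-type calcium channel.

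Libraries held between 33457406 and 49965101 counts, with a median of 43738141, and the ranges of the groups overlapped (33457406 to 49965101 in MLPKO, 33759811 to 46280882 in MLPKO-cRADKO). Levels are given in CPM, counts scaled to the size of the library, after TMM normalization, and a log2 fold change is MLPKO-cRADKO over MLPKO, from edgeR's quasi-likelihood test with Benjamini-Hochberg adjustment over the 13454 genes. A gene was called at an adjusted p under 0.05. Rrad itself had 262, 268, 140, 163 and 282 CPM in the MLPKO mice and 196, 135, 202, 146 and 176 CPM in the MLPKO-cRADKO mice (log2 fold change −0.38, SE 0.20, edgeR adjusted p = 0.29). The groups overlapped, so whole-gene Rrad RNA did not check the labels mouse by mouse, and genotype here means the label. Csrp3 RNA was present in all mice, from 691 to 3260 CPM (log2 fold change −1.08, SE 0.29, edgeR adjusted p = 0.0666; DESeq2 adjusted p = 0.0362). Ventricular cardiomyocyte markers summed to 66200 to 76900 CPM in MLPKO and 52000 to 63900 CPM in MLPKO-cRADKO, without overlap, and 1 of the 8 was called (Tnnt2, lower). Myh6 was the largest part of these sums (means 36500 and 29900 CPM). Log2 fold changes of the 8 ran from −0.57 (Tnnt2) to 0.13 (Tnni3). Endothelial markers summed to 673 to 758 and 785 to 906 CPM, also without overlap, and edgeR called 0 of the 6, DESeq2 2 and limma-voom 0, with 6 at an unadjusted edgeR p under 0.05. Smooth muscle and pericyte markers summed to 496 to 645 and 655 to 879 CPM, with 2 of 6 called higher by edgeR (Acta2 and Rgs5). DESeq2 called the same 2 and limma-voom Rgs5 alone. With a mouse left out, Acta2 kept its call in 4 of 10 edgeR fits and Rgs5 in 2. Cnn1 of the same list was lower but not called, at 16.1 against 3.57 CPM (log2 fold change −2.17, edgeR adjusted p = 0.103). Myh11 (0.01) and Pdgfrb (−0.01) had log2 fold changes near 0. Macrophage markers summed to 121 to 174 and 150 to 270 CPM, with 0 of 8 called by edgeR, 3 by DESeq2 and 0 by limma-voom, and all 8 at an unadjusted edgeR p under 0.05. Over all genes tested edgeR called 2.74%, DESeq2 9.65% and limma-voom 2.53%, and 21.5% had an unadjusted edgeR p under 0.05. In whole tissue, fewer cells of a type and less RNA per cell cannot be told apart, and the part of these marker levels in the results that follow was not tested.

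No member was called between the genotypes. Of the 7 members, 0 passed the adjusted threshold by edgeR, against 2.74% of all genes tested (1.80% lower and 0.944% higher in MLPKO-cRADKO). At an unadjusted p under 0.05 the edgeR test picked 2 of the 7 (Gja1 and Scn7a), against 21.5% of all genes. DESeq2 called 1 of 7 (Gja1), against 9.65%, and limma-voom called 0 of 7, against 2.53%. The median log2 fold change of the members was 0.05, beside 0.01 over all genes tested, with 5 members above zero and 2 below. In every one of the 7 the range of the MLPKO mice overlapped that of the MLPKO-cRADKO mice, and non-overlap was found for 6.62% of all genes. The intervals of Scn4a, Scn4b, Hcn2 and Hcn4 were the widest, with SE of 0.27 to 0.33 on the log2 scale, against 0.10 to 0.12 for the other 3.

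**Figure D1:**
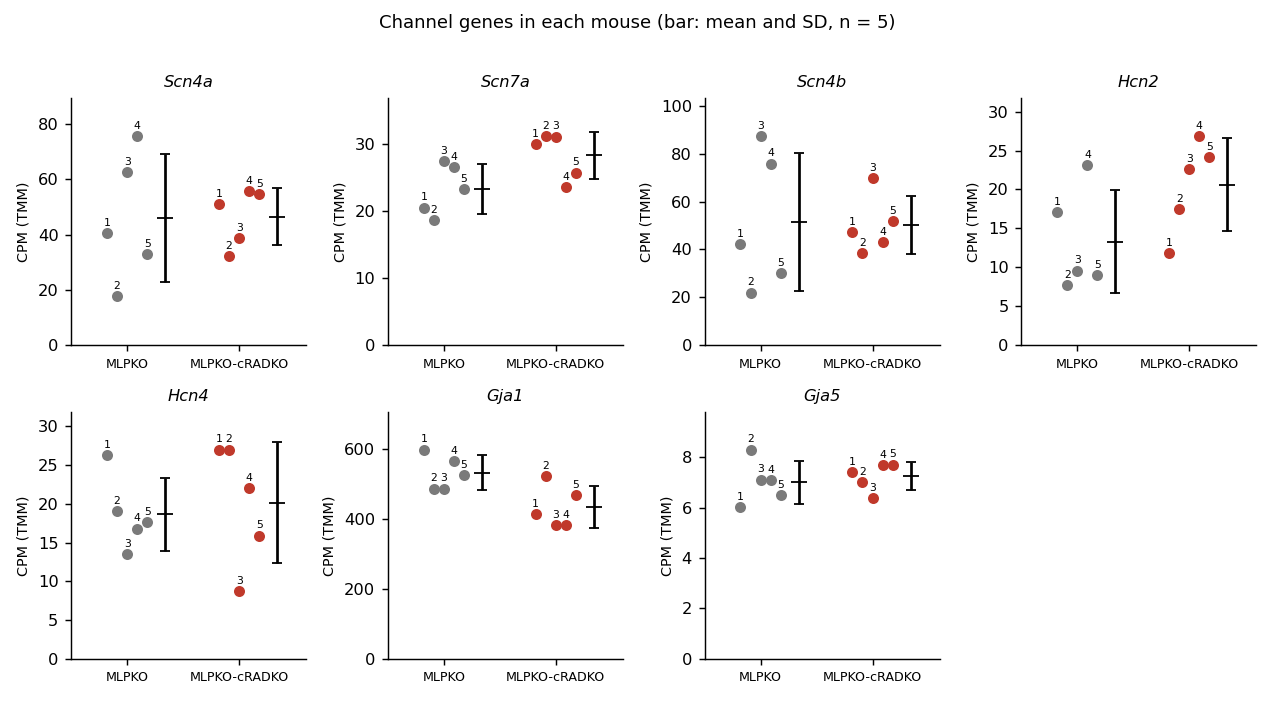
Level of each member in each mouse in CPM after TMM scaling, with an axis from 0 and points numbered by mouse. Black marks give mean and SD of 5 mice a group. The genotypes overlap in all 7 panels, and the MLPKO mice spread from 17.8 to 75.8 CPM for Scn4a but only from 6.01 to 8.30 CPM for Gja5.

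Before values are compared between genes, counts were divided by the length of each gene's canonical transcript, giving CPM per kilobase. Over the 10 mice Gja1 averaged 103 CPM per kilobase, Scn4b 10.0, Scn4a 7.01, Hcn2 4.77, Scn7a 3.46, Hcn4 2.90 and Gja5 2.28. Gja1 was above Scn4b and Scn4b above Scn4a in 10 of 10 mice, and Scn4a was above Hcn2 in 8 of 10. Lower in the order the neighbours were not separated: Hcn2 exceeded Scn7a in 6 of 10 mice, Scn7a exceeded Hcn4 in 6 of 10, and Hcn4 exceeded Gja5 in 7 of 10. With the length of all annotated exons joined, an alternative chosen after seeing the data, Gja1 fell to 39.2 and Gja5 to 1.19 CPM per kilobase, while the order of the 7 was the same.

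Sequence before the canonical transcript was read for the members. The window was the 250 bases before the start of the canonical transcript on GRCm39, written 5′ to 3′ on the gene's strand. It is shown for Scn4b and Hcn2, which are among the members that spread most from mouse to mouse and whose window holds no exon of the gene itself. Capitals mark the motif matches found.
Scn4b (chr9:45049345-45049594, plus strand): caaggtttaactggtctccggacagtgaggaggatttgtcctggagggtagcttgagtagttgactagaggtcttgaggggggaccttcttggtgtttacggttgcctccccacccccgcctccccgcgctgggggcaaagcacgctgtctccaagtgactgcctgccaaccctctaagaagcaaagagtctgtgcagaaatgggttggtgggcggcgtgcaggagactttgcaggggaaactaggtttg
Hcn2 (chr10:79551870-79552119, plus strand): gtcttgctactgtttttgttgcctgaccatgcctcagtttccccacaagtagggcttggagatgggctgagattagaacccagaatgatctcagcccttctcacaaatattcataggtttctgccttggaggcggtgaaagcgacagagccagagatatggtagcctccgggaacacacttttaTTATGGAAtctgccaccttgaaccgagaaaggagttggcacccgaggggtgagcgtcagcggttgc
The letters searched, on both strands, were AGATAA for GATA factors, GGTGTGA for T-box factors, CACGTG for the E-box of the circadian clock, TTATGNAA for the D-box and TNAAGTG for NKX2-5. They occurred in 9.60%, 3.23%, 6.26%, 3.05% and 10.1% of the 21770 windows of the same length before protein-coding genes. Hcn2 held the D-box letters starting 66 bases before the start (position −66) and Gja1 the GATA letters (position −159). The windows of Scn4a, Scn7a, Scn4b, Hcn4 and Gja5 held none of the 5 in these letters. The windows of Gja1 and Scn4a held exon sequence of other transcripts of the same gene. Those of Hcn2 and Hcn4 held exon sequence of the genes Gm66204 and Gm69284. The windows of Scn4a and Gja5, and part of that of Gja1, lay inside the annotated span of their own gene. A match is a description of the sequence only. The GC content of the windows was 57.2% for Scn4b and 51.2% for Hcn2.

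Scn4a (chr11:106208370-106256385 on GRCm39, minus strand, 24 exons in its canonical transcript) encodes the alpha subunit known as the skeletal muscle sodium channel. It had 40.5, 17.8, 62.6, 75.8 and 33.0 CPM in MLPKO mice 1 to 5 and 51.1, 32.3, 38.7, 55.7 and 54.7 CPM in MLPKO-cRADKO mice 1 to 5. The highest and the lowest mouse were both MLPKO, and the MLPKO-cRADKO mice lay between them. The means were 45.9 ± 23.2 and 46.5 ± 10.4 CPM (SD, n = 5 each), a log2 fold change of 0.02 (SE 0.32, 95% interval −0.67 to 0.71, edgeR adjusted p = 0.983). Skeletal muscle RNA was close to absent: the 8 skeletal muscle markers summed to 1.16 to 2.99 CPM in MLPKO and 1.38 to 2.27 CPM in MLPKO-cRADKO, Myh4 was at 0 in all mice, Myh1 did not exceed 0.0546 CPM, and 3 of the 8 were tested with 0 called by edgeR, DESeq2 or limma-voom and 0 at an unadjusted edgeR p under 0.05.

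Scn4b (chr9:45049595-45065452, plus strand, 5 exons) encodes a beta subunit that binds the alpha subunit through a disulfide bond. It had 42.3, 21.9, 87.6, 76.0 and 30.1 CPM in the MLPKO mice and 47.4, 38.4, 69.8, 43.2 and 51.9 CPM in the MLPKO-cRADKO mice. As for Scn4a, MLPKO mice 3 and 4 were the highest and MLPKO mouse 2 the lowest of all 10. The means were 51.6 ± 28.8 and 50.1 ± 12.1 CPM (SD, n = 5 each) and the log2 fold change was −0.04 (SE 0.33, 95% interval −0.77 to 0.69, edgeR adjusted p = 0.958). Its sign turned with the setting, to 0.10 by limma-voom, so no direction is given.

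Scn7a (chr2:66503769-66615367, minus strand, 25 exons) encodes a sodium-sensing relative of the voltage-gated channels. It had 20.5, 18.6, 27.4, 26.5 and 23.3 CPM in the MLPKO mice and 30.0, 31.2, 31.1, 23.5 and 25.7 CPM in the MLPKO-cRADKO mice. MLPKO-cRADKO mice 1, 2 and 3 lay above all MLPKO mice, and mice 4 and 5 lay within their range. The means were 23.3 ± 3.77 and 28.3 ± 3.50 CPM (SD, n = 5 each), a log2 fold change of 0.28 (SE 0.12, 95% interval 0.02 to 0.54), which did not pass the adjusted threshold (edgeR adjusted p = 0.197). Scn7a is also expressed by Schwann cells and fibroblasts. The 8 Schwann cell markers summed to 14.2 to 20.9 CPM in MLPKO and 10.8 to 18.9 CPM in MLPKO-cRADKO. Of these 7 were tested, with 0 called by edgeR, DESeq2 or limma-voom and 1 at an unadjusted edgeR p under 0.05. The 8 fibroblast markers summed to 1330 to 1920 and 1160 to 2040 CPM with 1 called by edgeR (Dpt, higher).

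Of the 12 sodium channel partners, among them Fgf13, Ank3 and Nedd4l, 11 were tested, with 0 called by edgeR, DESeq2 or limma-voom and 0 at an unadjusted edgeR p under 0.05.

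**Figure D2:**
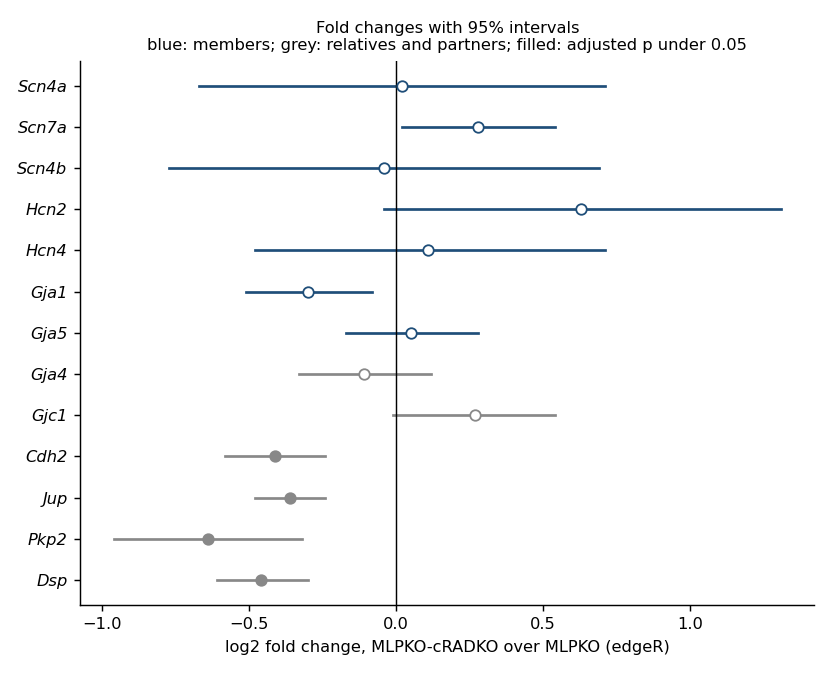
Log2 fold changes of MLPKO-cRADKO over MLPKO on the x axis with 95% intervals from edgeR, with filled points for an adjusted p under 0.05. The 7 members are blue. Grey points are the connexins Gja4 and Gjc1 and those gap junction partners that were called. Partners that were not called are not drawn, so the filled points were chosen by their call. All 7 member points are open, whereas Cdh2, Jup, Pkp2 and Dsp are filled and lie between −0.64 and −0.36.

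Over the 10 mice the log2 CPM of Scn4a and Scn4b correlated with Pearson's r 0.83 (permutation p = 0.00299, adjusted p = 0.0628 over the 21 pairs of members) and Spearman's rho 0.82 (permutation p = 0.00626, adjusted p = 0.131), and r was 0.83 after each genotype's mean was subtracted. Neither passed the adjustment. Without the 2 mice farthest from the median of Scn4a, r was 0.61 over 8 mice (permutation p = 0.117), a step that also narrows the range of Scn4a. Within MLPKO alone r was 0.96 and within MLPKO-cRADKO alone 0.03 (n = 5 each), a difference that was not tested. Among the MLPKO mice the order from low to high was 2, 5, 1, 3, 4 for Scn4a and 2, 5, 1, 4, 3 for Scn4b. Among the MLPKO-cRADKO mice, mouse 4 was the highest for Scn4a (55.7 CPM) and the second lowest for Scn4b (43.2 CPM), and mouse 3 was the second lowest for Scn4a (38.7 CPM) and the highest for Scn4b (69.8 CPM). Over all 10 mice Scn4a and Scn4b were the only pair of the 21 with r beyond 0.7 in either direction, and the others ran from −0.50 to 0.62. These libraries share their tissue and preparation.

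**Figure D3:**
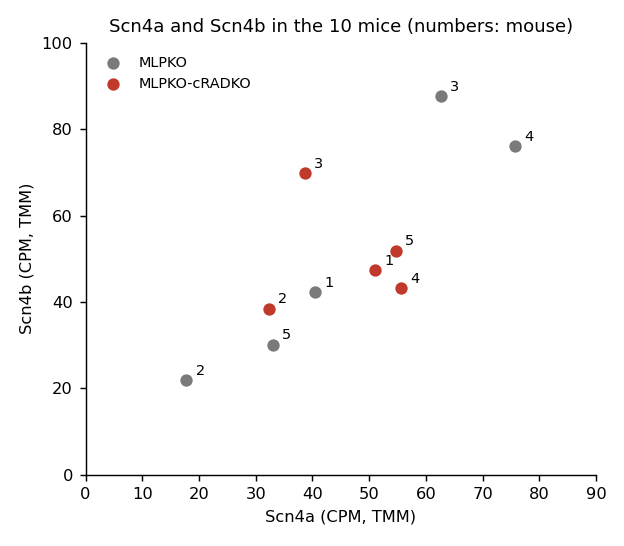
Scn4b against Scn4a in CPM after TMM scaling, 1 point a mouse, numbered by mouse and coloured by genotype, with both axes from 0. MLPKO mice 3 and 4 lie at the upper right and MLPKO mouse 2 at the lower left (17.8 and 21.9 CPM), with the MLPKO-cRADKO mice between them.

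The spread within a genotype set 4 members apart from the other 3. The pooled SD of log2 CPM within genotypes was 0.65 for Scn4b, 0.63 for Scn4a, 0.58 for Hcn2 and 0.54 for Hcn4, beside a median of 0.18 over all genes tested. These values were larger than those of 94.3%, 93.7%, 92.0% and 90.3% of genes. Scn7a (0.21), Gja1 (0.17) and Gja5 (0.15) lay near the middle, above 58.4%, 46.6% and 39.2% of genes. Among MLPKO mice alone, the highest value was 4.26 times the lowest for Scn4a and 4.01 times for Scn4b, against 1.72 and 1.82 times among MLPKO-cRADKO mice. For Hcn2 these were 3.01 times in MLPKO and 2.28 times in MLPKO-cRADKO. Hcn4 went the other way, with 1.95 times in MLPKO and 3.08 times in MLPKO-cRADKO. No test of unequal spread was run.

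Hcn2 (chr10:79552120-79571948, plus strand, 8 exons) encodes the pacemaker channel subunit known as the main HCN form of ventricular muscle. It had 17.1, 7.67, 9.57, 23.1 and 8.96 CPM in the MLPKO mice and 11.8, 17.5, 22.6, 26.9 and 24.2 CPM in the MLPKO-cRADKO mice. MLPKO mice 2, 3 and 5 lay below all MLPKO-cRADKO mice, and MLPKO mice 1 and 4 lay among them. The means were 13.3 ± 6.61 and 20.6 ± 5.99 CPM (SD, n = 5 each). The log2 fold change of 0.63 had the largest estimate of the 7 members and did not pass the threshold (SE 0.31, 95% interval −0.04 to 1.31, edgeR adjusted p = 0.26). Over the fits that left out 1 mouse each it ran from 0.50 to 0.93, with adjusted p from 0.0665 to 0.426. The highest value came without MLPKO mouse 4. An antisense non-coding gene shares 304 bases, or 8.57%, of the Hcn2 exons, and it is not stated whether counting used strand, so reads of the pair cannot be told apart. Antisense genes also share 0.988% of the exon bases of Scn4a, 2.11% of Scn4b and 1.16% of Gja1.

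Hcn4 (chr9:58730132-58770458, plus strand, 8 exons), the main HCN gene of the sinoatrial node, had 26.3, 19.1, 13.5, 16.8 and 17.6 CPM in the MLPKO mice. The MLPKO-cRADKO mice had 27.0, 27.0, 8.77, 22.0 and 15.9 CPM, with mouse 3 the lowest of all 10. The means were 18.7 ± 4.73 and 20.2 ± 7.84 CPM (SD, n = 5 each), a log2 fold change of 0.11 (SE 0.27, 95% interval −0.48 to 0.71, edgeR adjusted p = 0.854). Without that mouse the log2 fold change was 0.31, and without MLPKO-cRADKO mouse 1 or 2 it was −0.01, so no direction is given. Hcn3 had at most 10 counts and was not tested. Per length, Hcn2 held 54.3% ± 10.2 of HCN RNA in MLPKO and 64.7% ± 15.1 in MLPKO-cRADKO, and Hcn4 44.0% ± 11 and 34.4% ± 15 (SD, n = 5 each). Ratios of counts were also formed within each mouse, which do not depend on library scaling. They were not divided by transcript length. Their level therefore does not say which gene has more RNA, and only their difference between the genotypes is read. The log2 ratio of Hcn4 to Hcn2 was 0.59 ± 0.67 and −0.09 ± 1.01, a difference of −0.67 (two-sided exact permutation test, p = 0.27, adjusted p = 0.27 over 4 ratios, n = 5 each). Of the 4 HCN genes 3 were tested, as were 3 of the 4 HCN partners, and in both lists 0 were called by edgeR, DESeq2 or limma-voom and 0 had an unadjusted edgeR p under 0.05. The 8 markers of the conduction system summed to 359 to 516 CPM in MLPKO and 323 to 408 CPM in MLPKO-cRADKO. Most of this sum was Igfbp5 (means 281 and 231 CPM) and Smoc2 (100 and 102 CPM). Slitrk5, Vsnl1 and Cpne5 were near 0 throughout. Cntn2 ran from 2.82 to 9.40 CPM in MLPKO and from 2.19 to 19.3 CPM in MLPKO-cRADKO. Cacna1g had means of 36.6 and 29.6 CPM, and Ntm of 0.605 and 0.865 CPM. The 6 atrial markers summed to 28.6 to 37.8 and 30.9 to 51.7 CPM, with Bmp10 near 0. Stard10 had the highest means of them, 22.5 and 22.3 CPM. Myl4 ran from 1.41 to 5.29 CPM in MLPKO and from 1.61 to 19.6 CPM in MLPKO-cRADKO. Myl7 ran from 0.647 to 1.87 CPM and from 0.327 to 4.55 CPM. Of the conduction markers 5 and of the atrial markers 4 were tested, with 0 called by edgeR, DESeq2 or limma-voom and 0 at an unadjusted edgeR p under 0.05.

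Gja1 (chr10:56253241-56278609, plus strand, 2 exons) encodes Cx43, the connexin of working ventricular muscle. It had 597, 486, 486, 565 and 524 CPM in the MLPKO mice and 414, 522, 382, 381 and 467 CPM in the MLPKO-cRADKO mice. MLPKO-cRADKO mice 1, 3, 4 and 5 lay below all MLPKO mice, and mouse 2 lay among them. The means were 532 ± 49.0 and 433 ± 60.6 CPM (SD, n = 5 each), so the fitted level in MLPKO-cRADKO was 81.5% of that in MLPKO, with a 95% interval of 0.702 to 0.946 for the fold. The log2 fold change of −0.30 (SE 0.10) did not pass by edgeR (adjusted p = 0.111) or limma-voom (adjusted p = 0.103) and passed by DESeq2 (adjusted p = 0.0476), which called 9.65% of all genes. Leaving out 1 mouse at a time gave −0.37 to −0.25, with edgeR adjusted p from 0.0738 to 0.235. Ventricular cardiomyocyte markers were also lower as a sum in MLPKO-cRADKO, with 7 of the 8 below zero in log2 fold change and a median of −0.20, and their part in the Gja1 values was not tested.

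Gja5 (chr3:96812009-96984732, plus strand, 2 exons) encodes Cx40, the connexin of atria, Purkinje fibres and arterial endothelium. It had 6.01, 8.30, 7.11, 7.09 and 6.49 CPM in the MLPKO mice and 7.42, 7.01, 6.39, 7.70 and 7.71 CPM in the MLPKO-cRADKO mice. All MLPKO-cRADKO mice lay within the MLPKO range. The means were 7.0 ± 0.861 and 7.25 ± 0.557 CPM (SD, n = 5 each), a log2 fold change of 0.05 (SE 0.10, 95% interval −0.17 to 0.28, edgeR adjusted p = 0.819). The 8 arterial endothelial markers summed to 111 to 166 CPM in MLPKO and 137 to 144 CPM in MLPKO-cRADKO, with 0 called by edgeR, DESeq2 or limma-voom and 0 at an unadjusted edgeR p under 0.05. Gpr89, on the opposite strand, shares 165 bases, or 2.77%, of the Gja5 exons and had 467 to 773 counts, against 234 to 360 for Gja5. The log2 ratio of Gja5 to Gja1 was −6.25 ± 0.29 in MLPKO and −5.89 ± 0.21 in MLPKO-cRADKO, a difference of 0.36 (two-sided exact permutation test, p = 0.0635, adjusted p = 0.254, n = 5 each). With 5 mice a group the smallest p this test can give is 0.00794.

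**Figure D4:**
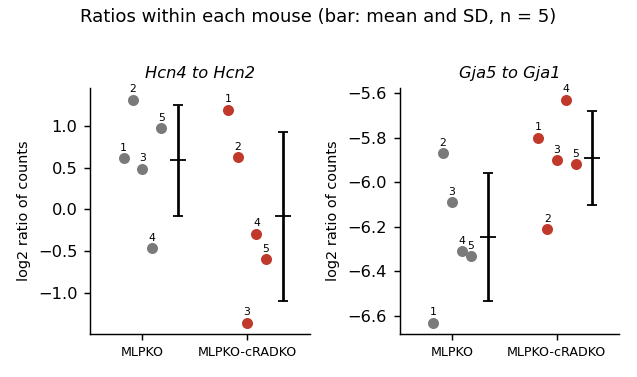
Log2 ratio of counts within each mouse for Hcn4 to Hcn2 and Gja5 to Gja1, with points numbered by mouse and black marks for mean and SD of 5 mice a group. The y axes do not start at 0. The Gja5 to Gja1 ratio runs from −6.63 to −5.87 in MLPKO and from −6.21 to −5.63 in MLPKO-cRADKO, and the genotypes overlap in both panels.

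Of the 23 connexin and pannexin genes, 9 were tested and 5 were at 0 in every mouse. EdgeR called 0 of the 9 (3 at an unadjusted p under 0.05), limma-voom 0, and DESeq2 2, Gja1 among them. Over all genes tested, 21.5% had an unadjusted edgeR p under 0.05 and DESeq2 called 9.65%. Gja4, an endothelial connexin, ran from 8.23 to 10.2 CPM in MLPKO and from 7.47 to 9.70 CPM in MLPKO-cRADKO (log2 fold change −0.11, SE 0.10, edgeR adjusted p = 0.599). Gjc1, a connexin of the conduction system, ran from 11.9 to 17.8 and from 14.4 to 19.9 CPM (log2 fold change 0.27, SE 0.13, edgeR adjusted p = 0.254). Per length, Gja1 held 87.7% ± 0.956 of connexin RNA in MLPKO and 84.7% ± 2.21 in MLPKO-cRADKO, and Gja5 1.76% ± 0.341 and 2.15% ± 0.276 (SD, n = 5 each).

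Several partners of gap junctions at the intercalated disc fell. Of the 11 listed, all were tested, 4 were called and these 4 were lower in MLPKO-cRADKO, where 1.80% of all genes were called lower, and their groups did not overlap, as was found for 3.98% of all genes in that direction. The list was written with earlier results of these data known. Jup, which encodes plakoglobin of desmosomes and adherens junctions, had 379, 376, 360, 332 and 360 CPM in the MLPKO mice and 288, 269, 283, 290 and 278 CPM in the MLPKO-cRADKO mice (log2 fold change −0.36, SE 0.05, edgeR adjusted p = 0.0151). Dsp, the gene for the desmosomal linker desmoplakin, had 1950, 2120, 1820, 1990 and 2230 CPM against 1450, 1460, 1340, 1530 and 1570 CPM (log2 fold change −0.46, SE 0.07, edgeR adjusted p = 0.0158). These 2 calls stood whichever mouse was left out.

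Cdh2, which encodes N-cadherin of the adherens junction, had 412, 428, 384, 385 and 446 CPM in the MLPKO mice and 321, 313, 256, 334 and 316 CPM in the MLPKO-cRADKO mice (log2 fold change −0.41, SE 0.08, edgeR adjusted p = 0.0239). It lost its call without MLPKO mouse 1 (adjusted p = 0.0575) or 5 (0.067) and without MLPKO-cRADKO mouse 2 (0.0504) or 5 (0.0675). Pkp2, the desmosomal plakophilin of heart muscle, had 240, 322, 191, 181 and 269 CPM against 174, 162, 134, 146 and 157 CPM (log2 fold change −0.64, SE 0.14, edgeR adjusted p = 0.0421). Its call was lost without MLPKO mouse 1 (0.0869) or 5 (0.102) and without MLPKO-cRADKO mouse 1 (0.0547), 2 (0.0717), 3 (0.0967), 4 (0.095) or 5 (0.0947), and its log2 fold change in these fits was between −0.68 and −0.58. The other 7 partners were not called, and among them Tjp1, the scaffold that binds Cx43, had a log2 fold change of 0.03 (SE 0.09, edgeR adjusted p = 0.884) and Ctnnb1, beta-catenin, −0.01 (SE 0.05, edgeR adjusted p = 0.947). Over all 11 the median log2 fold change was −0.20, beside 0.01 over all genes tested. Cardiomyocyte marker sums were lower in the same mice, and their part in these calls was not tested.

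**Figure D5:**
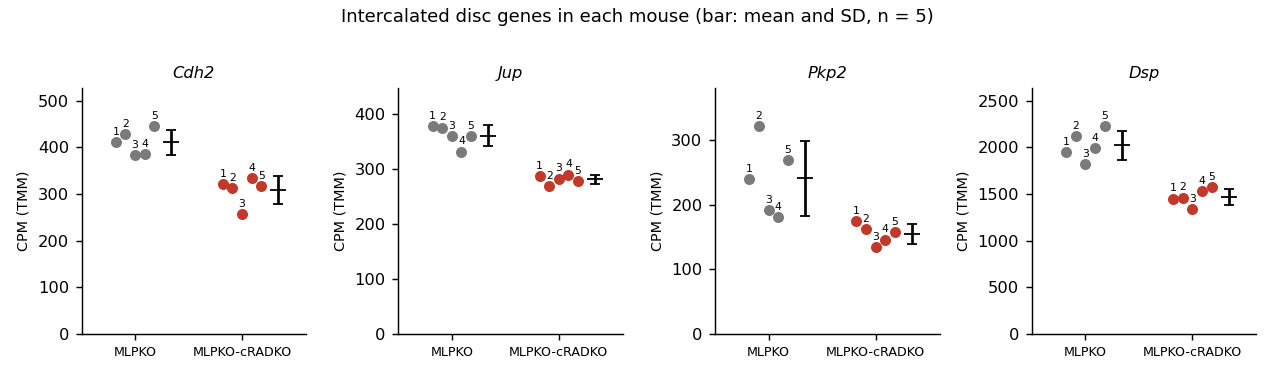
Level of the 4 called intercalated disc genes in each mouse in CPM after TMM scaling, with axes from 0, points numbered by mouse and black marks for mean and SD of 5 mice a group. Every MLPKO-cRADKO mouse lies below every MLPKO mouse in all 4 panels, with Dsp from 1340 to 1570 CPM against 1820 to 2230 CPM.

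Transcription factors of the conduction system and heart muscle are known to act on several of these channel genes. Of 20 listed, 18 were tested, with 0 called by edgeR or limma-voom. An unadjusted edgeR p under 0.05 was found for 5 of the 18, beside 21.5% of all genes tested. DESeq2 called 3 of the 18, beside 9.65% of all genes tested. These were Tbx5 (mean 19.2 against 26.9 CPM, log2 fold change 0.49, edgeR adjusted p = 0.0608), Tbx20 (204 against 158 CPM, −0.36, edgeR adjusted p = 0.0969) and Gata4 (180 against 139 CPM, −0.37, edgeR adjusted p = 0.0557). They are named after their values were seen. Tbx3, a repressor of working muscle genes in the nodes, had 10.6 ± 3.03 and 13.5 ± 2.11 CPM (SD, n = 5 each; edgeR adjusted p = 0.254), and Nkx2-5 78.2 ± 5.63 and 73.7 ± 4.44 CPM (SD, n = 5 each; edgeR adjusted p = 0.485).

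The 2 genes whose log2 CPM followed each member most closely over the 10 mice were picked as the highest of all genes tested, so their correlations are a description. They were Agpat3 (r 0.972) and Fbp2 (0.97) for Scn4a, Ern1 (0.969) and Cdh4 (0.964) for Scn4b, and Apip (0.98) and Kbtbd11 (0.956) for Scn7a. For Hcn2 they were Emilin2 (0.949) and Snn (0.941), and for Hcn4 Fgf7 (0.883) and Zfp758 (0.88). For Gja1 they were Rnf121 (0.915) and Appbp2 (0.912), and for Gja5 Entrep3 (0.894) and Tm6sf1 (0.893). After each genotype's mean was subtracted, r was between 0.835 and 0.976 for these 14 pairs.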

How the data were processed

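RNA was extracted from freeze-clamped apical ventricle, enriched for polyadenylated transcripts and sequenced as a library per mouse. The authors used STAR for alignment to GRCm39 and featureCounts for counting, and deposited raw, unnormalized gene counts. Versions, annotation release, strand, read-pair and multi-mapping settings are not given in the sources used here. Of counts from 1 to 20, 73.7% to 80.3% were even. The table held 60676 genes, and 3491 blank in every mouse were left out. Genes were placed by GENCODE M39 on GRCm39, which held 56629 of the 57185 left.

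The filter of the study's methods was applied: over 10 counts in 6 or more of the 10 mice, and no gene named Gm or Rik. It left 13454 genes. Genotypes were compared with edgeR 4.0.16 (quasi-likelihood test, TMM) in R 4.3.3, with DESeq2 1.42.0, which the authors used, and limma-voom (limma 3.58.1) as alternatives. Ratios used counts plus 0.5, and log2 CPM a prior count of 2. Correlations used 100000 permutations. Python 3.11.15 with numpy 2.4.6, pandas 2.3.3, scipy 1.17.1 and matplotlib 3.10.9 was used.

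Groups came from the sample labels. No 2 libraries of a group agreed within sampling noise (chi-square per gene from 29.1 to 211). Named genes were the 7 members, Rrad, Csrp3, Hcn3, Gja4, Gjc1, other listed genes called by edgeR and the 2 genes most like each member. The members and lists were chosen with earlier results of these data known. Mouse numbers are shared by the groups but belong to different animals. Other alternatives were RLE and upper quartile scaling, no filter, filterByExpr, Gm and Rik genes kept, robust dispersion, the mouse number as a block, a pseudocount of 2 and leaving out each mouse. The labels give 16 weeks of age, which 10 weeks plus 1 month does not reach, and the difference was not resolved. Some related genes, and 2 of the 4 within-mouse ratios computed, are not reported here. Physiology and protein measurements were not analysed here.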

Additional observations from a re-analysis of the deposited data

Results flagged for a closer look

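Of 38 groups of 5 mice tested for a mouse that stands apart (each named gene in each genotype), 1 was picked out: Cdh2 in MLPKO-cRADKO, where mouse 3 had 256.0 CPM and the other 4 mice 313 to 334 CPM. Chance picks out about 1 in 20 such groups. Without this mouse Cdh2 kept its call.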

How the results depend on the processing

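The 369 genes called across the table became 1298 by DESeq2, and 47 (without MLPKO mouse 5) to 826 (without MLPKO mouse 4) when a mouse was left out. The count also moved by over 1.5 times without MLPKO mouse 1 (107) and without MLPKO-cRADKO mouse 2 (142), 3 (105), 4 (100) or 5 (50). Upper quartile scaling gave 382 calls, of which 54.2% were lower, against 65.6% with TMM. Members called stayed at 0 in every edgeR and limma-voom fit and became 1 by DESeq2 (Gja1). Gap junction partners called ran from 2 to 4 when a mouse was left out, with 2 called without MLPKO mouse 1 or 5 or MLPKO-cRADKO mouse 2 or 5. Calls among the other family genes, 1 by edgeR, became 6 by DESeq2 and ran from 0 to 2 when a mouse was left out. The cause of these shifts was not tested, and each fit that left out a mouse had fewer samples. Signs turned only for members near zero: Scn4b became 0.10 by limma-voom and 0.12 with the block, and ran from −0.24 to 0.24 with a mouse left out, Scn4a from −0.19 to 0.27 and Hcn4 from −0.01 to 0.31. Both ratios kept their signs in all fits run, and with a mouse left out ran from −1.0 to −0.36 (Hcn4 to Hcn2) and 0.26 to 0.45 (Gja5 to Gja1).

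With the mouse number as a replicate block, 281 genes were called, no member among them, and the 4 gap junction partners kept their calls. Gja1 had a log2 fold change of −0.30 and Hcn2 0.71. Same-numbered mice did not deviate together (r from −0.0443 to 0.152 over 5 numbers, and 2 of 5 mice correlated best with their own number), so the number gives no pairing. The ratios under the block had an adjusted p of 0.312 by an exact sign-flip permutation test, whose smallest p with 5 pairs is 0.0625.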

Other observations

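Genes of the circadian clock were read after the values of Scn4a and Scn4b had been seen, as 17 genes in all. In 9 of the 17 both MLPKO mice 3 and 4 lay above the other 3 MLPKO mice, in 3 both lay below, and in 5, Cry1, Cry2, Nr1d1, Nfil3 and Bhlhe41, neither held. Over all genes tested both lay above in 16.0% and below in 17.1%. The 17 genes cannot be taken as independent of each other, and their counts were not tested against these shares. These mice, the highest for Scn4a and Scn4b, had 60.5 and 87.9 CPM of Dbp, a clock output factor, against 24.6 to 41.1 CPM in the other 3 MLPKO mice. Tef, a related factor, had 177 and 189 CPM in these mice against 93.4 to 128 CPM. Bmal1, the core activator of the clock, had 7.17 and 4.13 CPM in them against 10.5 to 17.3 CPM, and Npas2, its partner, 2.53 and 1.6 CPM against 4.10 to 8.11 CPM. Nr1d1, a clock repressor, did not set them apart, with 105 and 113 CPM against 90.5 to 110 CPM. In MLPKO-cRADKO the order was less regular: mice 4 and 5 had the highest Dbp (59.5 and 61.3 CPM) and the highest Scn4a (55.7 and 54.7 CPM), whereas mouse 3, highest for Scn4b (69.8 CPM), had the lowest Dbp (19.3 CPM). The smallest edgeR adjusted p of the 17 between the genotypes was 0.0603 (Bhlhe41). MLPKO mice 3 and 4 also stood apart outside the clock list. They were the lowest MLPKO mice for Csrp3 (1070 and 1010 against 1580 to 3260 CPM) and Rrad (140 and 163 against 262 to 282 CPM). The same held for Pkp2 (191 and 181 against 240 to 322 CPM) but not for Dsp (1820 and 1990 against 1950 to 2230 CPM). These genes were picked after their values were seen. What set the 2 mice apart was not tested. The hour at which each mouse was sampled is not given in the sources used here.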
